A study of Drosophila melanogaster with 24 samples.

Results

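Glutathione S-transferases and UDP-glycosyltransferases were followed over sex, tissue and diet in adult flies. The set was every gene of the count tables whose symbol is Gst followed by D, E, O, S, T or Z and a digit, or begins with Ugt, together with CG5724, now named Ugt37A2. It held 54 of the 16727 genes counted, 35 of them Gst genes and 19 of them Ugt genes. RNA sequencing had been done on 24 libraries from w1118 flies, 3 for each of 8 groups: male heads on the high fat diet (HFD) and on the regular diet (RD), male bodies on HFD and RD, female heads on HFD and RD, and female bodies on HFD and RD. Stocks were kept on cornmeal food. Young adults then spent 7 days on a commercial fly food with 20% coconut oil added (HFD) or on the same commercial food without it (RD). The labels name an age of 5 to 7 days. By the study's methods the diets began within days of eclosion, and the time point of the labelled age is not clear. Each head library was a pool of about 100 heads and each body library a pool of 10 headless bodies according to the labels, while the study's methods give a larger number of bodies, and w1118 carries the white mutation in all groups. The labels call each pool a biological replicate without saying whether the pools came from separate vials, so the p-values measure the spread between these pools.

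Both families carry out conjugation, the step of detoxification in which a bulky water-soluble group is put onto a lipid-soluble compound so that it can be exported. Glutathione S-transferases join the tripeptide glutathione to electrophiles, and many also reduce lipid peroxides. In insects the delta (GstD) and epsilon (GstE) classes have expanded into tandem gene clusters and include enzymes that break down insecticides, while the omega, sigma, theta and zeta classes are shared with other animals. UDP-glycosyltransferases of insects transfer a sugar, mostly glucose from UDP-glucose, to plant toxins, pigments and hormones, and work in gut, fat body, Malpighian tubules and antennae.

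The members fell into 11 GstD, 14 GstE, 10 other Gst genes (3 omega, 1 sigma, 4 theta and 2 zeta) and 18 Ugt genes of the small-molecule family. The remaining row, Ugt, is the gene now called Uggt, which encodes the endoplasmic reticulum enzyme that adds glucose to misfolded glycoproteins. It was kept because the rule takes it in, and it is described apart from the small-molecule transferases. Conversely, 17 rows listed under CG numbers or as Dot now carry Ugt symbols in RefSeq and were not members. Most members lay in clusters, given here on the dm6 genome. All 11 GstD genes lay on chromosome arm 3R between 12364776 and 12385624. Of the GstE genes, 10 lay on 2R between 18396638 and 18409835, and 10 Ugt genes of the 86D region lay on 3R between 11126597 and 11177910. Neighbours in these clusters are close paralogs, and how reads that fit more than 1 of them were counted is not given in the sources used here, so the split of reads between such neighbours is uncertain. Exons of 8 members overlapped another gene, the longest overlap being 223 bases of GstT2 with CG12926 on the opposite strand.

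Levels are given as RPKM, counts scaled by gene length and by library total, with the totals adjusted by TMM factors computed once over all 24 libraries. Total counts ran between 13373820 and 25703778 per library, and the 54 members took between 0.12% and 0.295% of them. The lowest share belonged to male head HFD 3, which also had the lowest TMM factor, 0.794, against 0.887 to 1.09 in the others. The 7 photoreceptor markers (ninaE and others) summed to between 23680 and 40670 RPKM in heads. In bodies they summed to 1321 RPKM in male body RD 3 and to 208.8 RPKM in the highest male body HFD library. The other body libraries had between 19.67 and 39.39 RPKM. In bulk samples fewer cells of a type and less RNA per cell cannot be told apart.

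GstD1, the delta enzyme known for dehydrochlorinating DDT and widely used as an oxidative stress reporter, was 1 of the 2 members with the highest mean RPKM in each of the 8 groups. It had 280, 71.5 and 133 RPKM in male heads on HFD against 278, 170 and 214 RPKM on RD. In male bodies it had 315, 145 and 147 RPKM on HFD against 198, 304 and 282 RPKM on RD. Female heads held 376, 406 and 394 RPKM on HFD against 432, 406 and 339 RPKM on RD. Female bodies held the highest levels, 588, 438 and 426 RPKM on HFD against 522, 535 and 406 RPKM on RD, and there GstD1 alone made up 27.9% of the summed mean RPKM of all members on HFD and 29.0% on RD. The diets overlapped in all 4 pairs of groups.

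GstE12, an epsilon gene outside the main cluster, was the next most abundant Gst member over the head libraries and over the body libraries. It ranged widely in male heads, at 296, 29.8 and 114.8 RPKM on HFD against 335, 164 and 211 RPKM on RD, and in male bodies, at 228, 77.0 and 106 RPKM on HFD against 137, 223 and 205 RPKM on RD. Female libraries were tight, at 308, 314 and 312 RPKM in heads on HFD, 330, 315 and 275 RPKM in heads on RD, 198, 153 and 169 RPKM in bodies on HFD and 159, 181 and 149 RPKM in bodies on RD. In the 6 male head libraries the level of GstE12 followed the share of counts on ribosomal protein genes in the same order: that share was 4.32%, 1.39% and 2.21% in male heads on HFD and 5.71%, 2.48% and 2.85% on RD. The share was 3.02% to 5.55% in male bodies, 6.53% to 8.23% in female heads and 12.6% to 14.6% in female bodies. GstO1, an omega transferase, did not follow it in heads, and in male bodies it was lowest, at 43.5 RPKM, in the library with the highest share. The part of this library measure in the differences below was not tested.

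**Figure D1:**
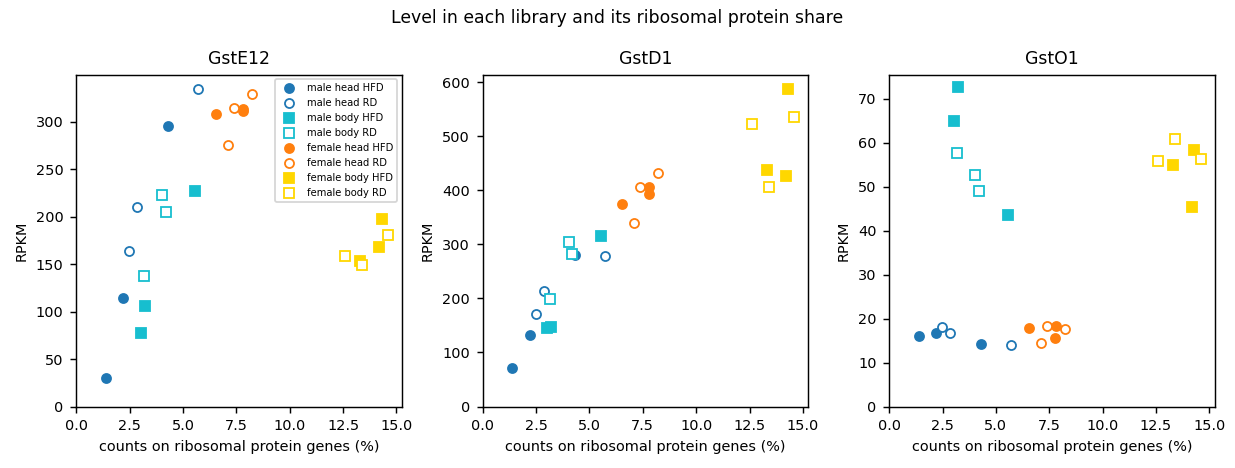
Level (RPKM) of GstE12, GstD1 and GstO1 in each of the 24 libraries (vertical) against the percentage of that library's counts that fell on ribosomal protein genes (horizontal), with filled symbols for HFD, open symbols for RD, circles for heads and squares for bodies. GstE12 in male heads spans 29.8 to 335 RPKM as the share spans 1.39% to 5.71%, while GstO1 in heads stays between 14.1 and 18.4 RPKM.

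By mean TPM, which scales to the sum over all genes in each library, the third Gst member was GstE9 in heads and GstE6 in bodies, both from the main epsilon cluster. GstE9 had 111, 53.7 and 71.1 RPKM in male heads on HFD against 131, 130 and 119 RPKM on RD, and 172, 181 and 148 RPKM in female heads on HFD against 162, 178 and 117 RPKM on RD. GstE6 had 83.9, 109 and 83.8 RPKM in male bodies on HFD against 118, 146 and 97.7 RPKM on RD, and 150, 121 and 124 RPKM in female bodies on HFD against 130, 137 and 126 RPKM on RD. The cluster did not act as 1 unit: on RD its highest and lowest members differed 257-fold in mean level in male heads, 980-fold in male bodies, 306-fold in female heads and 352-fold in female bodies.

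Among the Ugt genes, Ugt35b (Ugt35B1) was the highest in heads of both sexes. It had 132, 150 and 143 RPKM in male heads on HFD against 66.2, 172 and 164 RPKM on RD, and 136, 110 and 100 RPKM in female heads on HFD against 125, 102 and 87.6 RPKM on RD. In bodies it separated the sexes, with 102, 144 and 141 RPKM in males on HFD and 150, 139 and 126 RPKM in males on RD, but 33.4, 27.6 and 22.3 RPKM in females on HFD and 30.2, 26.8 and 16.6 RPKM in females on RD. Female bodies had Ugt86Dd (Ugt35C1), a gene linked to nicotine resistance in Drosophila, as their highest Ugt member. Ugt86Dd had 79.9, 95.7 and 82.2 RPKM in male bodies on HFD against 94.3, 76.7 and 63.9 RPKM on RD, and 50.1, 58.8 and 49.5 RPKM in female bodies on HFD against 37.5, 58.6 and 26.3 RPKM on RD.

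Ugt86Da (Ugt302C1) had 66.6, 69.8 and 68.2 RPKM in male heads on HFD and 47.1, 72.9 and 77.5 RPKM on RD. It had 94.5, 83.5 and 82.1 RPKM in female heads on HFD and 89.9, 84.9 and 79.3 RPKM on RD. Every head library thus stood above every body library, where Ugt86Da ran between 27.1 and 38.3 RPKM. Ugt36Bc (Ugt37D1) had 44.2, 34.4 and 40.5 RPKM in male heads on HFD against 41.3, 48.9 and 44.6 RPKM on RD, and 44.5, 45.0 and 44.9 RPKM in female heads on HFD against 49.0, 53.2 and 46.7 RPKM on RD. Its immediate neighbours Ugt36Ba and Ugt36Bb had mean levels under 1 RPKM in all 8 groups. Under that level lay 15 of the 54 members in male heads on HFD and 15 on RD, 12 and 9 in male bodies, 15 and 14 in female heads, and 12 and 11 in female bodies, with the HFD count first in each pair. GstD4 and GstD6 were tested in no comparison because of their low counts, at most 10 and 5 counts in any library, and 38 members were tested in all 16 comparisons.

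**Figure D2:**
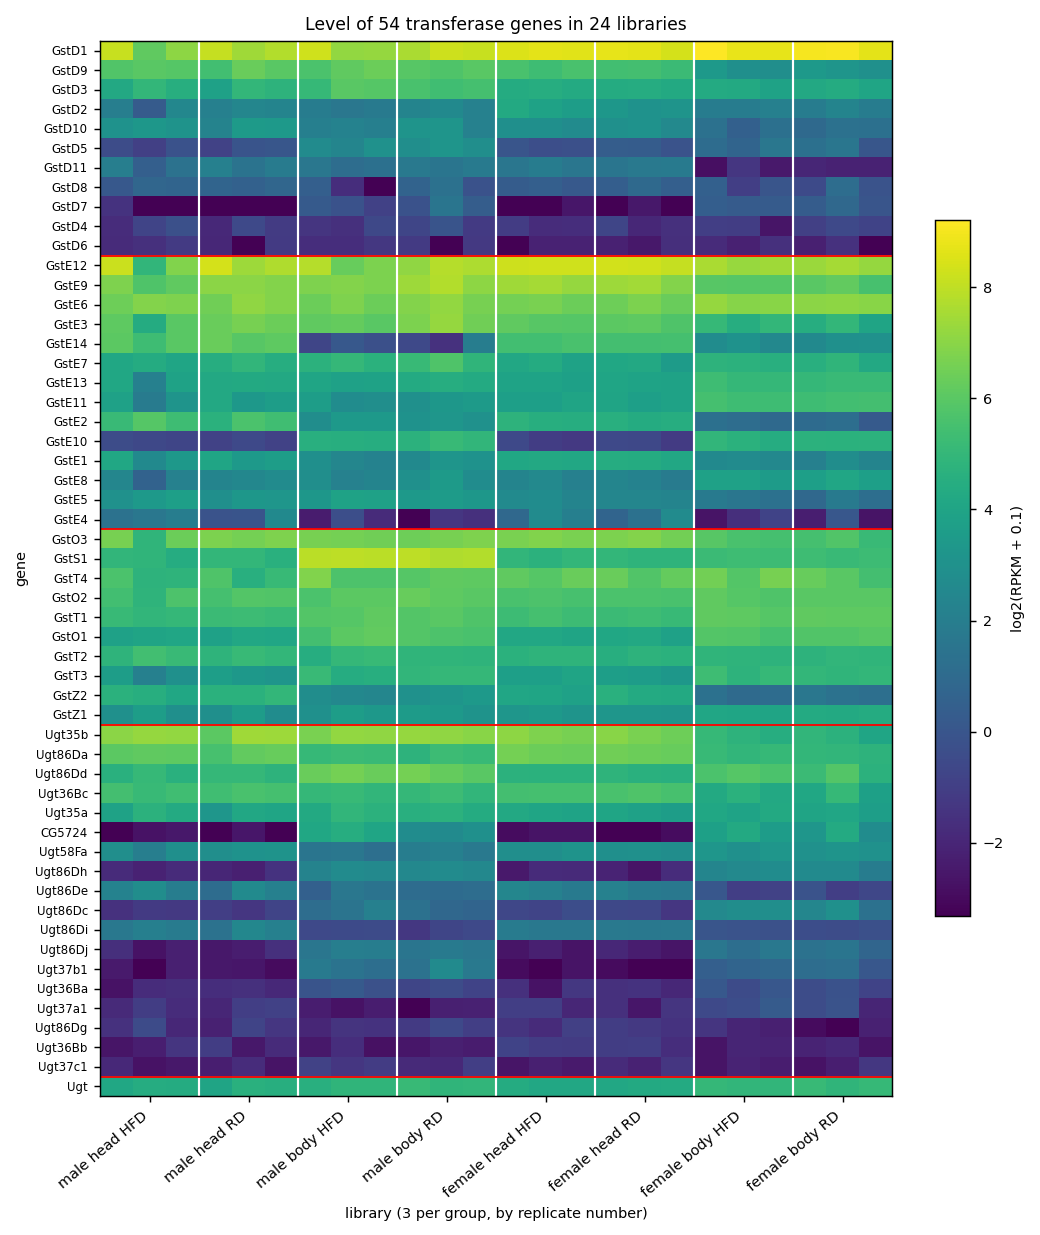
Level of each of the 54 genes (rows, grouped as GstD, GstE, other Gst, Ugt and the folding sensor row Ugt by red lines, highest mean first in each group) in the 24 libraries (columns, 3 per group), coloured by log2(RPKM + 0.1). GstD1, GstE12 and Ugt35b are bright across most columns, while CG5724, GstE10 and Ugt86Dh are bright in the body columns and dark in the head columns.

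The comparison of heads with bodies asks where in the fly each transferase is expressed. Calls rest on edgeR's quasi-likelihood test, with p adjusted over all genes tested and a threshold of 0.05, and log2 fold changes are given with their SE. On RD, 30 of the 48 members tested differed between male heads and male bodies, 10 higher and 20 lower in heads. Over all genes 30.7% were called higher and 42.8% lower, so the members' share of calls, 62.5%, was below that of all genes, 73.5%. In females on RD 40 of 48 differed, 19 higher and 21 lower in heads, beside 41.3% and 45.5% of all genes. On HFD 23 of 47 members differed in males, 11 higher and 12 lower, beside 29.3% and 34.0% of all genes. With the replicate number as a block, which pairs the heads and bodies of HFD males, 28 differed: the same 23 and GstD3, GstE6, GstT1, GstT2 and GstT4. In a fit of all 24 libraries that split was 10 higher and 20 lower. The share of all genes called rose too, from 63.3% to 71.1% with the block and to 73.4% with all 24 libraries. In females on HFD 43 of 50 differed, 20 higher and 23 lower, beside 40.6% and 44.7%. Most genes of the fly differed between heads and bodies, and nothing particular to the members is read from these counts.

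Calls were set side by side between the diets, without a test of the difference. The share of all genes with such shared calls was not worked out. Between 63.3% and 86.9% of all genes were called in the head-body comparisons. Nothing particular to the members is therefore read from the shared counts. All 10 members higher in male heads on RD were also higher there on HFD, and 12 of the 20 lower ones were also lower, or 15 of them with the block. In females all 19 higher and all 21 lower members on RD had the same call on HFD, and no member was called in opposite directions between diets or sexes. Called higher in heads in all 4 comparisons were 9 members: GstE1, GstE2, GstE4, GstE14, GstZ2, Ugt36Bc, Ugt86Da, Ugt86De and Ugt86Di. Called lower in all 4 were 11: CG5724, GstE10, GstO1, GstS1, GstT3, Ugt36Ba, Ugt37b1, Ugt86Dc, Ugt86Dd, Ugt86Dh and Ugt86Dj, with GstT1 added where the block was used. No GstD gene was in either list. Of the 14 GstE genes, all tested, 8 were higher and 6 lower in heads of RD females, and 4 were higher and 3 lower in heads of RD males. That is 100.0% of the class in females, beside 86.9% of all genes, and 7 of 14 in males, beside 73.5% of all genes, and the difference between the sexes was not tested.

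GstE14, called noppera-bo and needed in the fly for ecdysteroid synthesis, had the largest head excess in males. It had 79.7, 60.9 and 67.5 RPKM in male heads on RD against 0.586, 0.244 and 3.80 RPKM in male bodies on RD. The highest of these body values came from male body RD 3, the library with the high photoreceptor markers. The log2 fold change, head over body, was 5.44 (SE 0.76, edgeR adjusted p = 0.000331), and 7.48 without that library. In females GstE14 had 44.2, 44.5 and 45.8 RPKM in heads on RD against 6.09, 7.83 and 7.84 RPKM in bodies on RD, and the difference was 2.63 on the log2 scale (SE 0.11).

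GstE4, GstE2 and GstZ2 were higher in heads in both sexes. GstE4 had 0.829, 0.851 and 6.02 RPKM in male heads on RD against 0, 0.293 and 0.237 RPKM in male bodies, and 1.51, 2.41 and 6.58 RPKM in female heads on RD against 0.105, 0.952 and 0.0575 RPKM in female bodies. Its log2 fold changes were 3.86 (SE 1.13) in males and 3.21 (SE 0.88) in females, and single libraries weighed heavily: the value was 2.23 without male head RD 3 in males, and in females 5.25 without female body RD 3 and 2.37 without female head RD 4. The call in males was lost without male body RD 1 (edgeR adjusted p = 0.051). GstE2 was steadier, with 25.6, 50.2 and 41.3 RPKM in male heads on RD against 8.27, 9.31 and 7.99 RPKM in male bodies. In females it had 24.01, 20.7 and 22.0 RPKM in heads on RD against 1.99, 2.16 and 1.08 RPKM in bodies, 3.66 higher on the log2 scale (SE 0.23). GstZ2, one of 2 zeta enzymes, a class that isomerizes maleylacetoacetate in tyrosine breakdown, was higher in heads by a log2 fold change of 1.56 (SE 0.16) in males and 3.03 (SE 0.14) in females on RD.

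Ugt86Di (Ugt302K1) was the Ugt member with the largest head excess in males. It had 2.50, 5.51 and 4.30 RPKM in male heads on RD against 0.315, 0.504 and 0.584 RPKM in male bodies, a log2 fold change of 3.13 (SE 0.37). In females it had 3.24, 3.12 and 3.20 RPKM in heads on RD and 0.674, 0.662 and 0.735 RPKM in bodies. GstD11 showed a head excess in females only by the tests of each sex: 2.86, 3.20 and 3.49 RPKM in female heads on RD against 0.158, 0.126 and 0.129 RPKM in female bodies (log2 fold change 4.47, SE 0.28). In males it had 4.29, 2.65 and 3.63 RPKM in heads on RD and 3.21, 2.85 and 3.33 RPKM in bodies, which overlap, and the difference between the sexes in this tissue contrast was not tested.

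CG5724 was close to absent from heads. It had 0, 0.0696 and 0 RPKM in male heads on RD against 6.82, 6.35 and 7.62 RPKM in male bodies, and 0, 0 and 0.0336 RPKM in female heads on RD against 9.36, 20.1 and 6.82 RPKM in female bodies. With 2 counts in all 3 male head libraries on RD and 656 in the body libraries, the ratio of body to head was 310 (95% exact interval 85.5 to 2570, counting error only). In females on RD the counts were 1 in heads and 1335 in bodies, a ratio of 1150 (207 to 45600). A further 2 members behaved like it, both Ugt37b1 and GstD7 being near the limit of detection in heads.

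Ugt37b1 had 0.0727, 0.0684 and 0.0296 RPKM in male heads on RD against 2.50, 6.25 and 3.20 RPKM in male bodies (log2 fold change -6.06, SE 0.57). In females on RD it had 0.0271, 0 and 0 RPKM in heads against 2.11, 2.32 and 0.970 RPKM in bodies, a body to head ratio of 176 (31.3 to 7000) from 1 head count. GstD7 was not tested in RD males: it had no count in the 3 male head libraries and 64 in the male bodies, at least 20.2-fold lower in heads with a floor of 3 counts over the group. In females on RD the counts were 1 and 63, a ratio of 54.5 (9.43 to 2190).

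GstE10 lies head to head with GstE1, their exons overlapping by 20 bases on opposite strands, and the neighbours had opposite tissue patterns. GstE10 had 0.446, 0.577 and 0.455 RPKM in male heads on RD against 26.6, 34.1 and 30.7 RPKM in male bodies (log2 fold change -5.93, SE 0.21), and 0.581, 0.561 and 0.355 RPKM in female heads on RD against 26.5, 25.4 and 26.4 RPKM in female bodies (-5.68, SE 0.17). GstE1 was higher in heads, by 0.76 (SE 0.23) in males and 1.90 (SE 0.20) in females on RD. At the 86D cluster the same held: Ugt86Dh and Ugt86Dj were lower in heads by log2 fold changes of -5.05 (SE 0.29) and -4.39 (SE 0.37) in males and -5.31 (SE 0.39) and -4.33 (SE 0.40) in females on RD, while Ugt86Da, Ugt86De and Ugt86Di were higher. The Ugt row, the folding sensor Uggt, was moderately lower in heads on RD, by -0.58 (SE 0.19) in males and -0.73 (SE 0.09) in females.

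**Figure D3:**
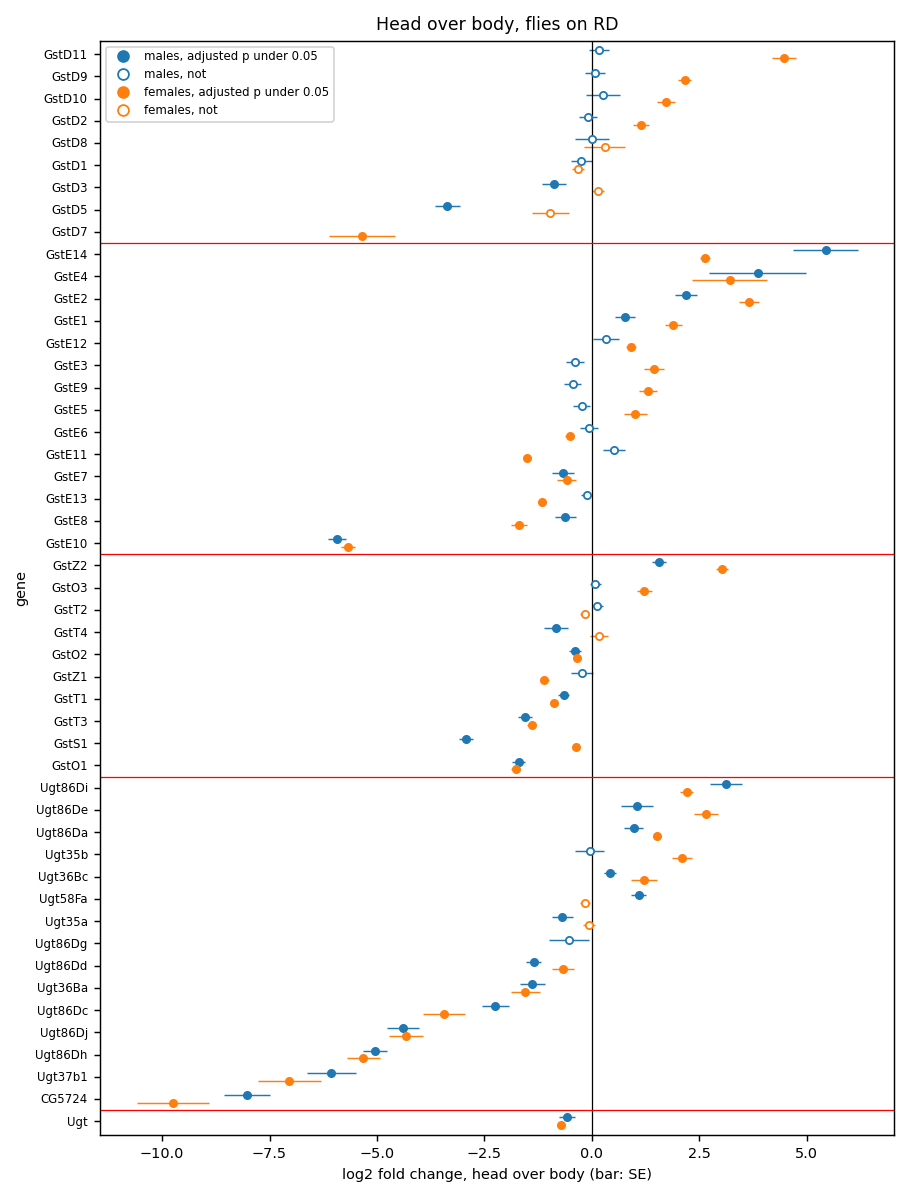
Log2 fold change, head over body, of each member tested in flies on RD, males in blue and females in orange, with bars for the SE and filled points for an adjusted p under 0.05. CG5724, Ugt37b1, GstE10, Ugt86Dh and Ugt86Dj sit far to the left in both sexes, GstE14 at 5.44 in males and 2.63 in females, and GstD11 at 4.47 in females.

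The comparison of males with females asks how far the transferases are sex-biased. In bodies on RD 27 of the 47 members tested differed, 18 higher and 9 lower in males, where 49.3% of all genes were called higher and 35.1% lower. On HFD 27 of 48 differed, 17 higher and 10 lower, beside 43.1% and 32.4% of all genes. Called on both diets were 16 of the higher and 8 of the lower members. The share of all genes called on both diets was not worked out, so nothing particular to the members is read from these shared calls. The median log2 fold change was 0.30 over the members and 0.40 over all genes on RD, and -0.03 and 0.23 on HFD, so the members' differences are to be read against that shift. Summed over each list, markers of the sex organs matched the labels. Testis markers (9 genes) summed to 2759 to 3017 RPKM in male bodies on HFD and 2029 to 2549 RPKM on RD, against 12.4 to 16.95 RPKM in female bodies. The testis marker bam went the other way, with a mean of 1.16 RPKM in male bodies on HFD and 1.22 RPKM on RD. In female bodies its mean was 14.67 RPKM on HFD and 15.97 RPKM on RD. Ovary markers (7 genes) summed to 3.02 to 4.12 RPKM in male bodies against 648.9 to 1389 RPKM in female bodies. Flight muscle markers (4 genes) summed to 724.0 to 729.9 RPKM in male bodies on HFD and 667.6 to 764.7 RPKM on RD, against 288.7 to 338.9 RPKM in female bodies on HFD and 269.6 to 305.5 RPKM on RD. What part these tissues had in the members' differences was not tested.

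Of the 9 GstD genes tested in bodies, 5 were higher and 1 lower in males on either diet. The share called higher, 55.6%, compares with 49.3% of all genes on RD and 43.1% on HFD, and nothing particular to the class is read from it. GstD11 had 3.21, 2.85 and 3.33 RPKM in male bodies on RD against 0.158, 0.126 and 0.129 RPKM in female bodies, a log2 fold change, male over female, of 4.44 (SE 0.29, edgeR adjusted p = 4.39e-07). GstD9 had 62.6, 53.0 and 63.1 RPKM in male bodies on RD against 11.0, 9.03 and 7.73 RPKM in female bodies (2.67, SE 0.15). GstD1 was lower in male bodies on RD (-0.90, SE 0.19, edgeR adjusted p = 0.00168) and on HFD (-1.33, SE 0.37).

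GstS1, the sigma enzyme, which is abundant in flight muscle and conjugates the lipid peroxidation product 4-hydroxynonenal, had the next largest male excess. It had 246, 210 and 214 RPKM in male bodies on RD against 39.3, 36.2 and 37.7 RPKM in female bodies, a log2 fold change of 2.55 (SE 0.12). On HFD it had 243, 246 and 239 RPKM in male bodies and 36.7, 39.0 and 38.3 RPKM in female bodies, so the groups stood far apart on both diets. In heads GstS1 did not separate the sexes, at 31.6, 31.6 and 24.9 RPKM in males on RD and 31.6, 27.7 and 28.4 RPKM in females. Ugt35b (2.49, SE 0.21), GstE3 (2.32, SE 0.28), GstE2 (2.28, SE 0.27) and GstE5 (2.06, SE 0.27) were also higher in male bodies on RD.

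Female bodies held more GstE14 and GstE11. GstE14 was lower in male bodies on RD, at 0.586, 0.244 and 3.80 RPKM against 6.09, 7.83 and 7.84 RPKM in female bodies (log2 fold change -2.22, SE 0.68, edgeR adjusted p = 0.0127). Without male body RD 3 the log2 fold change was -4.04, and without male body RD 1 the call was lost (adjusted p = 0.0692). GstE11 had 7.69, 9.70 and 11.4 RPKM in male bodies on RD against 39.9, 42.5 and 43.6 RPKM in female bodies (-2.14, SE 0.17). Ugt58Fa (Ugt317A1) had 3.80, 4.25 and 3.28 RPKM in male bodies on RD and 7.85, 8.87 and 7.86 RPKM in female bodies (-1.12, SE 0.17). GstZ1 and GstZ2, adjacent zeta genes, went opposite ways on RD: GstZ1 was lower in male bodies (-1.005, SE 0.17) and GstZ2 higher (1.82, SE 0.18).

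**Figure D4:**
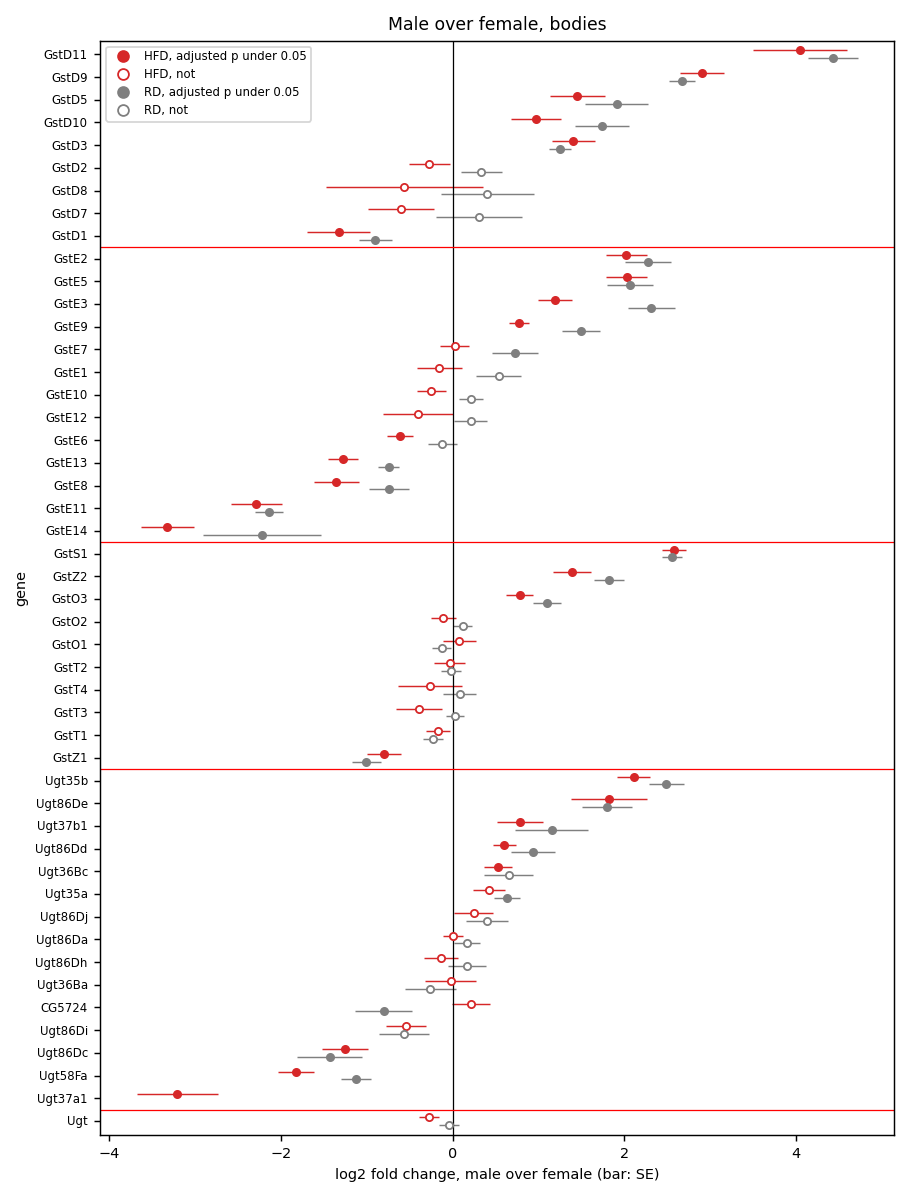
Log2 fold change, male over female, of each member tested in bodies, HFD in red and RD in grey, with bars for the SE and filled points for an adjusted p under 0.05. GstD11 is highest, at 4.44 on RD, GstS1 is at 2.55 on RD, and GstE14 and GstE11 lie left of 0 on both diets.

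In heads the sexes were far closer. On RD 3 of 43 members differed, 2 higher and 1 lower in males, where 3.41% of all genes were called higher and 4.35% lower. GstE5 had 7.32, 9.88 and 9.62 RPKM in male heads on RD against 5.20, 5.20 and 4.86 RPKM in female heads (log2 fold change 0.84, SE 0.17, edgeR adjusted p = 0.0348). GstE14 had 79.7, 60.9 and 67.5 RPKM in male heads against 44.2, 44.5 and 45.8 RPKM in female heads on RD (0.65, SE 0.12, adjusted p = 0.0267). GstD2 had 4.22, 5.35 and 4.99 RPKM in male heads against 9.94, 8.35 and 8.86 RPKM in female heads on RD (-0.88, SE 0.16, adjusted p = 0.0277).

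These head calls depended on the libraries. The count was 20 of 45 without male head RD 1, where 49.2% of all genes were called, 1 without male head RD 2, and 0 without male head RD 3 or without any of the female head RD libraries, where between 0.541% and 2.7% of all genes were called. On HFD none of 43 members was called by edgeR, beside 0.447% of all genes higher and 1.33% lower. At an unadjusted p under 0.05 4 members were higher and 5 lower, or 9.3% and 11.6% of those tested. Of all 10281 genes tested, 1543 were higher and 1057 lower at the same unadjusted threshold. The members' share was thus below that of all genes for higher, and near it, 10.3%, for lower. Nothing particular to the members is read from these counts. DESeq2 called 5 of the 43 members beside 10.7% of all genes, and limma-voom called none beside 2.36%. Without male head HFD 2 edgeR called 11 of 45 beside 41.3% of all genes, and without male head HFD 3 it called 1 of 44 beside 3.05%.

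The comparison of diets asks what the high fat food changed. No member was called by edgeR in any of the 4 comparisons. At an unadjusted p under 0.05 0 members were higher and 1 lower of 40 for male heads, 2 and 1 of 44 for female heads, 2 and 7 of 48 for male bodies, and 0 and 1 of 47 for female bodies. The 2 and 7 members in male bodies were 4.17% and 14.6% of those tested, beside 1.71% and 2.08% of all genes at the same unadjusted threshold. For all genes these shares were 0.472% higher and 0.943% lower for heads of males, 1.6% and 1.16% for heads of females, and 2.97% and 0.515% for bodies of females. Of all genes tested, 0.00983% were called in female heads, and 0.0% in each of the other comparisons, male heads, male bodies and female bodies. Averaged over both sexes, 0.0% of all genes and no member were called in heads or in bodies, and the sex by diet interaction called 0.0% of all genes and no member in either tissue. For the averages, members with an unadjusted p under 0.05 numbered 0 higher and 1 lower of 45 in heads and 2 and 3 of 49 in bodies. The shares of all genes were 1.27% higher and 1.22% lower in heads and 1.99% and 2.3% in bodies. For the interaction the members numbered 0 and 1 of 45 in heads and 1 and 4 of 49 in bodies. There 0.351% of all genes were higher and 0.893% lower in heads, and 1.36% and 1.82% in bodies. limma-voom also called no member in any of these 8 comparisons, and DESeq2 called 2, CG5724 in male bodies and GstD2 in female heads.

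CG5724 separated the diets in male bodies. It had 17.4, 22.4 and 16.3 RPKM on HFD against 6.82, 6.35 and 7.62 RPKM on RD, a log2 fold change, HFD over RD, of 1.42 (SE 0.16, unadjusted p = 6.05e-05). The adjusted p was 0.452 with edgeR and 5.69e-09 with DESeq2, the only 1 of 13 alternatives that called it, and over them the log2 fold change stayed between 1.30 and 1.53. In female bodies the diets overlapped, at 13.6, 19.5 and 12.1 RPKM on HFD against 9.36, 20.1 and 6.82 RPKM on RD (0.33, SE 0.40), and without female body RD 3 the log2 fold change was 0.93. The interaction of sex and diet for CG5724 was 1.12 (SE 0.45, unadjusted p = 0.0311, edgeR adjusted p = 0.9999), and 0.57 without female body RD 3. Averaged over both sexes the difference was 0.86 (SE 0.23, edgeR adjusted p = 0.872).

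Mdr50, an ABC transporter, was the 1 gene in the list of pathway genes higher on HFD in male bodies at an unadjusted p under 0.05. Its values over the body libraries looked like those of CG5724, but no measure of likeness was computed. It had 8.79, 8.46 and 6.09 RPKM in male bodies on HFD against 4.27, 5.14 and 4.58 RPKM on RD, and 9.26, 17.6 and 7.85 RPKM in female bodies on HFD against 6.59, 16.2 and 5.83 RPKM on RD. Its diet difference in male bodies was 0.74 (SE 0.21, unadjusted p = 0.00954, edgeR adjusted p = 0.944). Of the other listed transporters there, MRP was at -0.34 (SE 0.14), Mdr49 at -0.41 (SE 0.45) and Mdr65 at 0.10 (SE 0.18). Midgut markers (8 genes) summed to 662.7 to 5305 RPKM in male bodies on HFD and 1152 to 2821 RPKM on RD, which overlap, while Malpighian tubule markers (6 genes) summed to 219.8 to 261.0 RPKM on HFD and 296.7 to 326.8 RPKM on RD. Most of that gap came from 1 of the 6, Aph-4, an alkaline phosphatase, with a mean of 102.3 RPKM on HFD and 164.0 RPKM on RD. Uro (11.94 RPKM on HFD, 19.03 on RD), NaPi-T (54.27 and 62.19) and ZnT35C (28.85 and 31.21) were also lower on HFD. CapaR was higher, at 5.98 RPKM on HFD and 4.83 RPKM on RD, and Irk3 close, at 30.80 and 30.34 RPKM. Midgut markers went both ways: Jon99Ci had 111.6 RPKM on HFD and 274.4 on RD, betaTry 693.3 and 356.7. The part of these marked tissues in the diet differences was not tested.

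GstD2 in female heads had 19.3, 14.6 and 12.6 RPKM on HFD against 9.94, 8.35 and 8.86 RPKM on RD. The groups did not overlap, with a log2 fold change of 0.77 (SE 0.17, unadjusted p = 0.00140). The adjusted p was 0.9999 with edgeR and 0.0489 with DESeq2, and over 13 alternatives the log2 fold change lay between 0.58 and 0.89. Male heads showed no such separation, at 4.04, 1.10 and 5.44 RPKM on HFD against 4.22, 5.35 and 4.99 RPKM on RD, and the interaction was -1.18 (SE 0.56, unadjusted p = 0.0586). Without male head HFD 3, the library at 1.10 RPKM, it was -0.79.

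GstZ2, picked out after its values were seen, was lower on HFD in all 4 comparisons by its fitted values. It had 25.1, 22.8 and 17.5 RPKM in male heads on HFD against 25.8, 25.3 and 31.6 RPKM on RD, and 17.2, 16.3 and 14.4 RPKM in female heads on HFD against 24.8, 19.9 and 19.7 RPKM on RD. In male bodies it had 6.87, 5.66 and 5.23 RPKM on HFD against 8.11, 9.24 and 10.8 RPKM on RD, and in female bodies 2.41, 1.94 and 2.05 RPKM on HFD against 3.04, 2.53 and 2.32 RPKM on RD. Only female bodies overlapped between the diets. Averaged over both sexes, the log2 fold change was -0.37 (SE 0.11, unadjusted p = 0.00743) in heads and -0.50 (SE 0.13, unadjusted p = 0.00308) in bodies, and neither held after adjustment over all genes (edgeR adjusted p = 0.794 and 0.872). GstZ1, the neighbouring zeta gene, had 16.9, 16.6 and 15.6 RPKM in female bodies on HFD against 20.2, 19.5 and 21.1 RPKM on RD (-0.28, SE 0.09, unadjusted p = 0.0133, adjusted p = 0.936).

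**Figure D5:**
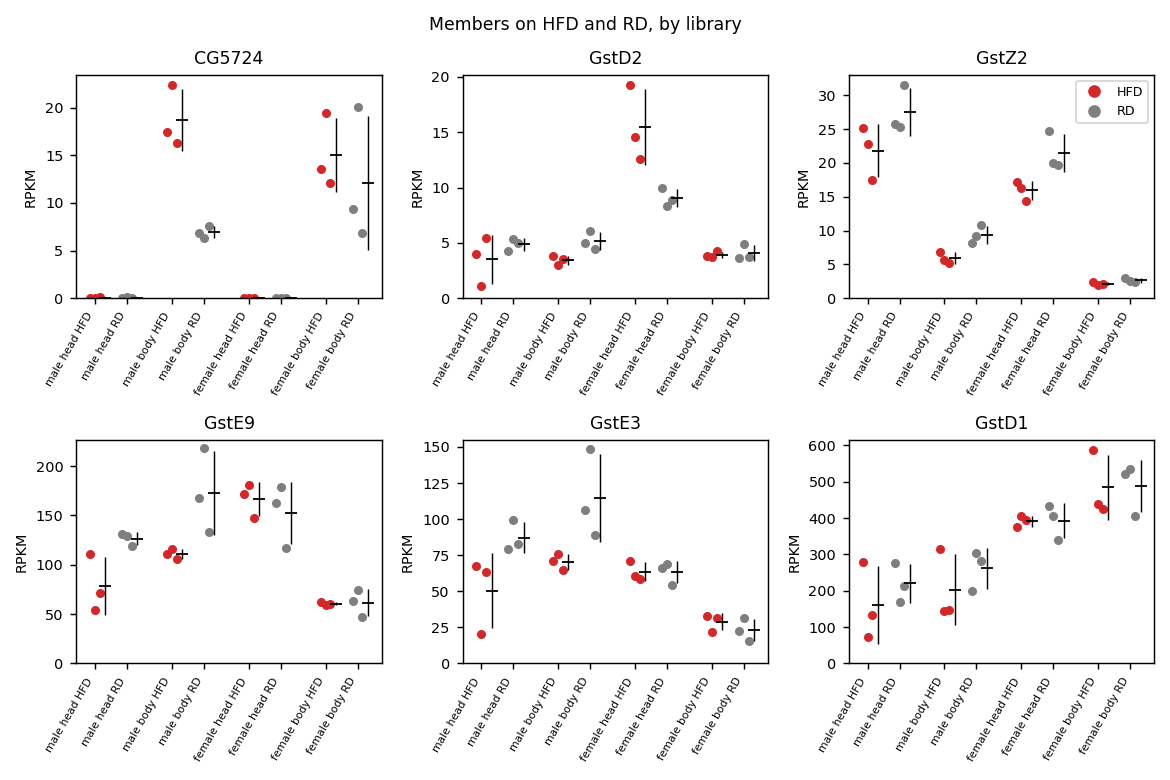
RPKM of 6 members in each library of the 8 groups, HFD in red and RD in grey, with the mean and SD of the 3 libraries in black beside the points. CG5724 separates HFD from RD in male bodies (16.3 to 22.4 against 6.35 to 7.62 RPKM), GstD2 in female heads (12.6 to 19.3 against 8.35 to 9.94 RPKM), and GstD1 overlaps between diets in all 4 pairs.

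Among the epsilon genes none passed the test for diet, and their signs in males were mostly negative. In male bodies 11 of 13 GstE genes had a negative log2 fold change, with a median of -0.45 over the class and 0.03 over all genes, and in male heads 10 of 13, with medians of -0.43 and -0.02. In females 5 of 14 were negative in heads and 4 of 13 in bodies, with medians of 0.03 in each. Negative signs were also in the majority in males among the GstD genes (7 of 9 in bodies, 6 of 8 in heads). In male heads the same held for the other Gst genes (8 of 10, but 5 of 10 in bodies) and the other pathway genes (15 of 17, but 7 of 17 in bodies). Of all genes tested, 5294 of 10175 were negative in male heads and 5825 of 12935 in male bodies. In male heads the share of counts on other genes under 1000 bases was 5.29% to 8.67% on HFD and 6.92% to 10.3% on RD, and 9 of the 14 GstE genes are that short. In male bodies that share was 17.6% to 18.9% on HFD and 16.5% to 17.1% on RD, and the part of these measures was not tested. GstE9 had the smallest p in male heads (-0.67, SE 0.27, unadjusted p = 0.0465, adjusted p = 0.809), the 3 libraries on HFD lying below the 3 on RD as given above. In male bodies GstE9 had 111, 116 and 106 RPKM on HFD against 168, 218 and 133 RPKM on RD (-0.66, SE 0.22, unadjusted p = 0.0191, adjusted p = 0.944).

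GstE3 and GstE7 came next in male heads. GstE3 had 67.3, 20.6 and 63.3 RPKM on HFD against 79.5, 99.7 and 82.5 RPKM on RD (-0.77, SE 0.43), and GstE7 had 17.4, 20.7 and 16.3 RPKM on HFD against 22.5, 29.8 and 22.0 RPKM on RD (-0.43, SE 0.23). Male head HFD 3 held the lowest GstE3 value, and without it the log2 fold change of GstE3 was -0.39 and no member was called in male heads. For heads, the interaction term of GstE9 stood at -0.79 (SE 0.33) and that of GstE7 at -0.58 (SE 0.31), both with an edgeR adjusted p of 0.907. GstE3 had the smallest interaction p among the members in bodies (-1.02, SE 0.37, unadjusted p = 0.0175, edgeR adjusted p = 0.9999). In male bodies it had 70.9, 75.8 and 64.6 RPKM on HFD against 106, 148 and 88.9 RPKM on RD, and in female bodies 32.9, 22.1 and 31.5 RPKM on HFD against 22.2, 31.4 and 15.8 RPKM on RD.

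The Ugt genes tested for diet in bodies gave no call, and their signs were mostly positive. On HFD 14 of 15 had a positive log2 fold change in female bodies (median 0.23, all genes 0.001) and 10 of 15 in male bodies (median 0.13, all genes 0.03). Of all genes tested, 50.3% were positive in female bodies and 55.0% in male bodies, beside 93.3% and 66.7% of these Ugt genes. Those with a p under 0.05 in male bodies were CG5724 and Ugt36Ba. Ugt36Ba is a low-level gene, at 0.852, 1.08 and 0.766 RPKM on HFD against 0.507, 0.648 and 0.470 RPKM on RD (0.72, SE 0.27, unadjusted p = 0.0315). Ugt58Fa had 2.77, 2.98 and 2.26 RPKM in male bodies on HFD against 3.80, 4.25 and 3.28 RPKM on RD, and 9.56, 7.74 and 9.33 RPKM in female bodies on HFD against 7.85, 8.87 and 7.86 RPKM on RD, with an interaction of -0.60 (SE 0.25, edgeR adjusted p = 0.9999). In heads averaged over both sexes the members with the smallest p after GstZ2 were Ugt35a (0.35, SE 0.19) and Ugt36Bc (-0.15, SE 0.09). The theta gene GstT4 had 92.0, 57.1 and 98.7 RPKM in female bodies on HFD against 78.0, 64.5 and 44.5 RPKM on RD (0.43, SE 0.26, edgeR adjusted p = 0.936), and these ranges overlap.

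The genes that supply and regulate these enzymes were taken as a list of 21. Both rows for glutathione synthetase (GS and CG32495) and frc, a nucleotide-sugar transporter, were listed at 0 in all 24 libraries, and 18 of the list were tested in at least 1 comparison. How reads that fit more than 1 gene were counted is not given, so these 0 values are not read as absent expression. No gene of the list was called in any diet comparison. In bodies on RD 13 of 17 differed between the sexes, 5 higher and 8 lower in males, among them Trxr-1, the thioredoxin reductase that stands in for glutathione reductase in flies (-2.37, SE 0.25), the glutamate-cysteine ligase modifier Gclm (-1.15, SE 0.16) and the gamma-glutamyl transferase Ggt-1 (-1.22, SE 0.13), all lower. The 76.5% of the list called there compares with 84.4% of all genes. In heads on RD 4 of 18 differed between the sexes, or 22.2% beside 7.76% of all genes: se was higher in males (0.69, SE 0.08), and cnc (-0.48, SE 0.09), Gclc (-0.53, SE 0.11) and UGP (-0.58, SE 0.13) were lower. The edgeR adjusted p was 0.0344 for cnc, 0.0405 for Gclc and 0.0423 for UGP. In heads on HFD 0 of 17 were called, beside 1.78% of all genes. With single libraries left out, the share of all genes called in RD heads ran from 0.541% to 49.2%. The list's own calls in those fits are not given here, and nothing particular to the list is read from the 4. Trxr-1 varied between male libraries as GstE12 did, with 61.9, 6.01 and 11.1 RPKM in male heads on HFD and 72.4, 15.4 and 23.4 RPKM on RD.

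Between heads and bodies on RD, 9 of 18 genes of the list differed in males, 5 higher and 4 lower, and 14 in females, 7 higher and 7 lower, where 73.5% of all genes were called in males and 86.9% in females. The eye pigment gene se, which encodes an omega glutathione transferase that makes a drosopterin precursor and whose exons overlap GstO2 by 61 bases on the other strand, was the most head-biased, at 201.9, 198.4 and 208.0 RPKM in male heads on RD against 0.456, 0.521 and 8.02 RPKM in male bodies, with male body RD 3 again the highest body library. Mdr65, the ABC transporter of the blood-brain barrier, was higher in heads by log2 fold changes of 1.99 (SE 0.23) in males and 3.68 (SE 0.11) in females on RD. Mdr50 was lower in heads, by -5.39 (SE 0.30) and -5.97 (SE 0.54). cnc and Keap1, the fly's Nrf2 and its repressor, were not called between the sexes in bodies on either diet, while cnc was called in heads on RD as given above.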

How the data were processed

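The authors deposited raw counts for 16727 genes, not normalized, in 1 table per sex with gene lengths. Paired reads from stranded mRNA libraries were aligned with TopHat, and the submitters' processing notes name dm6 and featureCounts, with no version, strand or multiple-mapping setting. Table lengths equalled the exon union of the Ensembl annotation for 52 of 54 members, and 19 members were matched to RefSeq under older names.

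Tests used edgeR 4.0.16 in R 4.3.3 (glmQLFit, glmQLFTest, TMM, filterByExpr defaults, Benjamini-Hochberg over all genes, threshold 0.05) on the libraries compared, with 12 libraries for averaged and interaction contrasts, and were tested on simulated data. Alternatives were DESeq2 1.42.0, limma-voom (limma 3.58.1), RLE factors, total counts, no low-count filter, all 24 libraries, a replicate block and each library left out. Figures used matplotlib 3.10.9. Members and lists were chosen with earlier results of these data known. Values in every library were given for the 3 Gst and 3 Ugt members highest by mean TPM in heads and in bodies, for up to 3 called members in each direction with groups that do not overlap in the RD sex and tissue comparisons, for members called in a diet comparison by edgeR or DESeq2 or else those with the 3 smallest p, and for GstD1. Replicate numbers were taken to pair samples only for heads and bodies of HFD males, where the correlations of deviations were 0.701, 0.533 and 0.223. For heads and bodies in the other groups these correlations ran from -0.404 to 0.118. The study's methods take heads and bodies from the same batch of flies, so they may be paired in those groups too. No sequence was used here, so promoter motifs were not searched.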

Additional observations from a re-analysis of the deposited data

How the results depend on the processing

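Counts of members called kept within 1.5 times in all head-body and body sex comparisons. They moved elsewhere. DESeq2 called 1 in the diet comparison of female heads, beside 0.147% of all genes, and 1 in that of male bodies, beside 0.216%. Between the sexes it called 5 in HFD heads, beside 10.7% of all genes, and 8 in RD heads, beside 16.2%. All 24 libraries in 1 fit gave 9 in HFD heads, beside 27.9% of all genes, and 0 in RD heads, beside 5.25%. Leaving out single libraries gave 0 to 11 in HFD heads, beside 0.0% to 41.3% of all genes. In RD heads it gave 0 to 20, beside 0.541% to 49.2%. The replicate block gave 16 in RD heads, where only a number is shared, and 28 against 23 for heads over bodies in HFD males. Of all genes, 37.7% were called in RD heads with the block, and 71.1% for heads over bodies in HFD males. For heads over bodies the block gave 24 against 30 in RD males, beside 66.8% of all genes with it and 73.5% without. In RD females it gave 42 against 40, beside 86.6% of all genes with it and 86.9% without. In HFD females it gave 43 with and without it, beside 85.9% and 85.3% of all genes. No called member changed sign with RLE factors, total counts or all 24 libraries. The block also ended the call of GstE14 between the sexes in RD bodies (adjusted p = 0.0677) and called GstD1 between the sexes in RD heads; it changed the call of no other value given in full. The log2 fold change of GstD1, HFD over RD, female body, changed sign (-0.0014 under DESeq2 and RLE factors, -0.0072 with total counts, -0.0114 with all 24 libraries, -0.1401 to 0.0913 leaving out libraries), as did the log2 fold change of GstD1, HFD over RD, female head (0.0016 under limma-voom, 0.00 with the replicate block, -0.0955 to 0.0597 leaving out libraries). Low counts in heads limit CG5724, GstD7 and Ugt37b1. The cause of these shifts was not tested.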
